A study of Mesocricetus auratus with 14 samples.

Results

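Interleukin-6 and its relatives act on hepatocytes through a shared relay, and this account follows the genes of that relay in the liver of golden hamsters (Mesocricetus auratus). The members were given by symbol as Il6ra, Il6st, Osmr, Lifr, Il1r1, Jak1, Jak2, Stat3, Socs3 and Bcl3, and were looked up in the authors' table of genes with a symbol, case ignored. Of the 10 symbols, 6 had a row in that table of 10023 genes, out of 22283 genes counted, and all 6 passed the filter on low counts. Il6st (the shared receptor subunit gp130), Lifr (the receptor of leukaemia inhibitory factor), Il1r1 (the signalling receptor of interleukin-1) and Bcl3 (an atypical IkB protein and STAT3 target) were not analysed here.

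RNA sequencing was made of total RNA from liver. The study set 7 samples treated with DC371739, a compound that the labels name by this code alone, against 7 control samples. Both groups are labelled as fed a high-fat diet. The sources used here give no dose, route or duration, no sex or age, and no description of what controls received. Nor do they tie samples to separate animals, so the p-values speak of the spread among these samples, which may be technical.

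In this pathway interleukin-6 binds the receptor encoded by Il6ra, and the complex engages gp130, while oncostatin M and leukaemia inhibitory factor use Osmr or Lifr together with gp130. JAK kinases bound to these receptors phosphorylate STAT3, which then enters the nucleus and switches on acute phase genes in hepatocytes, and one of the genes it induces, Socs3, encodes a protein that blocks gp130 and the JAKs. Phosphorylation of STAT3 cannot be read from RNA, so the values below are transcript levels alone.

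Libraries held 13672589 to 23948628 counts. DC371739 replicate 7 and control replicates 6 and 7 stood apart, with 22152239 to 23948628 counts against 13672589 to 16710097 in the other 11, and with 12.6% to 14.4% of counts from mitochondrial genes against 7.23% to 9.33%. Results for the members are therefore given for all 14 libraries, for a model that also holds library class (deeper or shallower), and for the 11 shallower libraries alone (6 DC371739 and 5 control). Hepatocyte markers were abundant in every library: 7 of 8 had a symbol in the table, and their summed level was 111217 to 137721 CPM in DC371739 samples and 115001 to 150553 CPM in control samples. CPM is a gene's count scaled to 1e+06 counts of the TMM-adjusted library total. These are bulk samples, so fewer cells of a type and less RNA per cell cannot be told apart.

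DC371739 livers had more Stat3 and Il6ra transcript in most libraries, and mean levels of Jak1, Jak2 and Socs3 that lay within the spread of control livers. The scarce Osmr also had a higher mean in DC371739 samples (1.43 ± 0.74 CPM) than in control samples (0.94 ± 0.23 CPM, SD, n = 7 each), with overlapping groups. Over all 14 libraries none of the 6 members passed an adjusted p of 0.05 (edgeR's quasi-likelihood test), where 1.85% of the 12166 genes tested did. Stat3 and Il6ra had an unadjusted p under 0.05, as did 20.4% of all genes. DESeq2 called 1 member (Stat3) and limma-voom with sample quality weights called 2 (Stat3 and Il6ra). All 6 log2 fold changes were positive, as were 46.6% of those of all genes. No member separated the groups completely, as 0.699% of genes did (0.296% higher and 0.403% lower in DC371739). The median of the 6 was 0.31, and the median over all genes tested was -0.02.

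**Figure D1:**
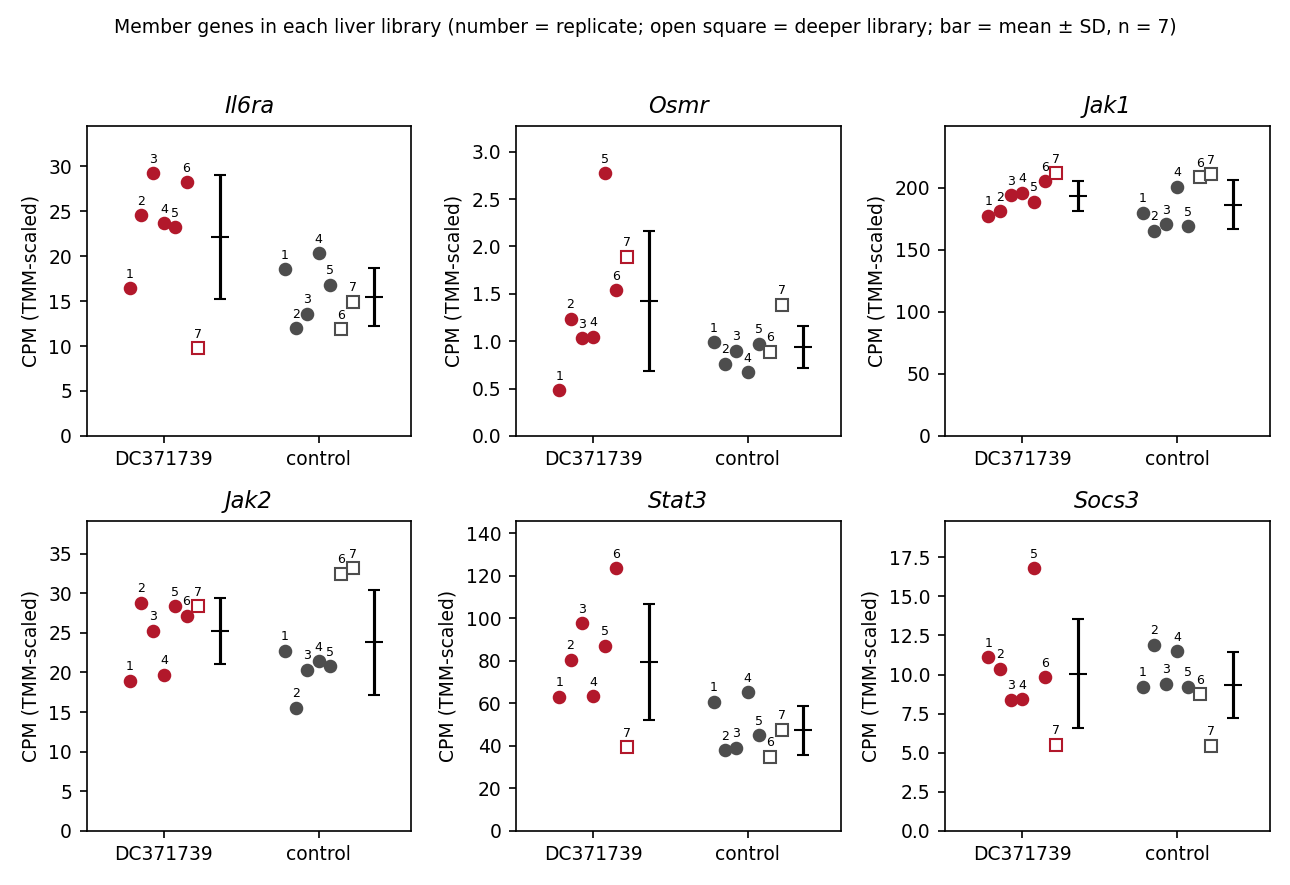
Level of each member in CPM (vertical axis, linear and starting at 0) in 7 DC371739 and 7 control libraries. Points are libraries numbered by replicate, open squares are the 3 deeper libraries, and bars show mean ± SD; Stat3 is at 63.1 CPM or more in 6 DC371739 libraries and at 39.3 CPM in the deeper replicate 7.

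Among the receptors, Il6ra, which gives a cell its own sensitivity to interleukin-6, was at 9.73 CPM in the lowest DC371739 library, with a median of 23.7 and a highest value of 29.2 CPM. In control libraries it ran from 11.9 through a median of 14.9 to 20.4 CPM. The groups overlapped: DC371739 replicates 2 to 6 lay above every control library, replicate 1 lay at 16.4 CPM inside the control range, and the deeper replicate 7 lay below every control library. Il6ra averaged 22.2 ± 6.88 CPM in DC371739 samples and 15.5 ± 3.26 CPM in control samples (SD, n = 7 each); the log2 fold change was 0.52 (SE 0.20, edgeR adjusted p = 0.169).

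Without the 3 deeper libraries Il6ra was at 24.2 ± 4.55 CPM in 6 DC371739 samples and 16.3 ± 3.45 CPM in 5 control samples, and it rose by 0.58 on the log2 scale (SE 0.15, edgeR adjusted p = 0.0178). The call held whichever of the 11 libraries was left out, at an adjusted p of up to 0.0489. Il6ra and Stat3 were the 2 members of 6 that passed in this fit, in which 21.5% of 12249 genes did. With the library class term in place of the exclusion, Il6ra had a log2 fold change of 0.39 (SE 0.17, adjusted p = 0.142).

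Osmr, the receptor subunit through which oncostatin M signals, was the scarcest member. It had 7 to 47 counts per library. It stood at 0.48 to 2.77 CPM in DC371739 libraries (median 1.24) and at 0.67 to 1.38 CPM in control libraries (median 0.90). DC371739 replicates 5, 6 and 7 lay above all controls and replicate 1 below all of them, so the treated libraries spanned the whole control range. Its log2 fold change of 0.60 (SE 0.30) had an edgeR adjusted p of 0.275, and 0.192 over the shallower libraries. The SD of its log2 CPM was 0.72 in DC371739 and 0.29 in control libraries, and no difference between the groups was shown.

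Of the kinases, Jak1 varied least of all members within each group, with an SD of log2 CPM of 0.09 in DC371739 and 0.15 in control libraries. Jak1, which binds gp130 and starts the phosphorylation relay, was at 178 to 212 CPM in DC371739 libraries (median 194) and at 165 to 211 CPM in control libraries (median 180). The control range held all DC371739 libraries but replicate 7, which lay just above it. Jak1 averaged 194 ± 12.3 CPM in DC371739 samples and 187 ± 19.7 CPM in control samples (SD, n = 7 each); the log2 fold change was 0.05 (SE 0.08, edgeR adjusted p = 0.757).

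Jak2, the kinase of the growth hormone and several cytokine receptors, ran from 19.0 to 28.8 CPM in DC371739 libraries (median 27.2) and from 15.6 to 33.2 CPM in control libraries (median 21.4). Both control values above 30 CPM came from the deeper replicates 6 and 7, and the 5 shallower controls lay at 15.6 to 22.8 CPM. Over all libraries its log2 fold change was 0.08 (SE 0.16, edgeR adjusted p = 0.815). Over the shallower ones it was 0.30 (adjusted p = 0.102), and it passed there only without DC371739 replicate 1 (0.37, adjusted p = 0.0406).

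Stat3, the transcription factor of the relay, had 39.3, 80.6 and 124 CPM as its lowest, median and highest value in DC371739 libraries, and 34.9, 45.1 and 65.1 CPM in control libraries. DC371739 replicates 2, 3, 5 and 6 lay above every control, at 80.6, 97.6, 87.1 and 124 CPM. Replicates 1 and 4, at 63.1 and 63.3 CPM, lay just under the highest control, and the deeper replicate 7 lay below the control median.

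Stat3 averaged 79.3 ± 27.4 CPM in DC371739 samples and 47.2 ± 11.7 CPM in control samples (SD, n = 7 each). The log2 fold change was 0.75 (SE 0.21) with an edgeR adjusted p of 0.0681, and in the authors' deposited table the log2 fold change was 0.75 with an adjusted p of 0.0652. With DESeq2 the adjusted p was 0.0154 and with limma-voom and sample quality weights 0.00592. Of all the settings and left-out libraries tried with edgeR on the full set, Stat3 passed only without DC371739 replicate 7 (0.86, adjusted p = 0.0114) and without all 3 deeper libraries. Without replicate 7 the deeper libraries left are all controls, so that fold change mixes library class with treatment.

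Over the 11 shallower libraries Stat3 was at 85.9 ± 22.9 CPM in 6 DC371739 samples and 49.6 ± 12.6 CPM in 5 control samples, and rose by 0.80 on the log2 scale (SE 0.20, edgeR adjusted p = 0.0177). The call held whichever of the 11 was left out, with an adjusted p between 0.0112 and 0.0486. With the library class term the log2 fold change was 0.63 (SE 0.20, adjusted p = 0.0529), and no member passed, where 12.3% of 12166 genes did. In that fit Stat3 passed on leaving out any of 5 libraries (control replicates 4 and 7 and DC371739 replicates 1, 4 and 7), at an adjusted p of 0.0155 to 0.0487. Without DC371739 replicate 7 the deeper class holds controls alone. The fold change then rests on the 11 shallower libraries, so that pass is no separate result.

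**Figure D2:**
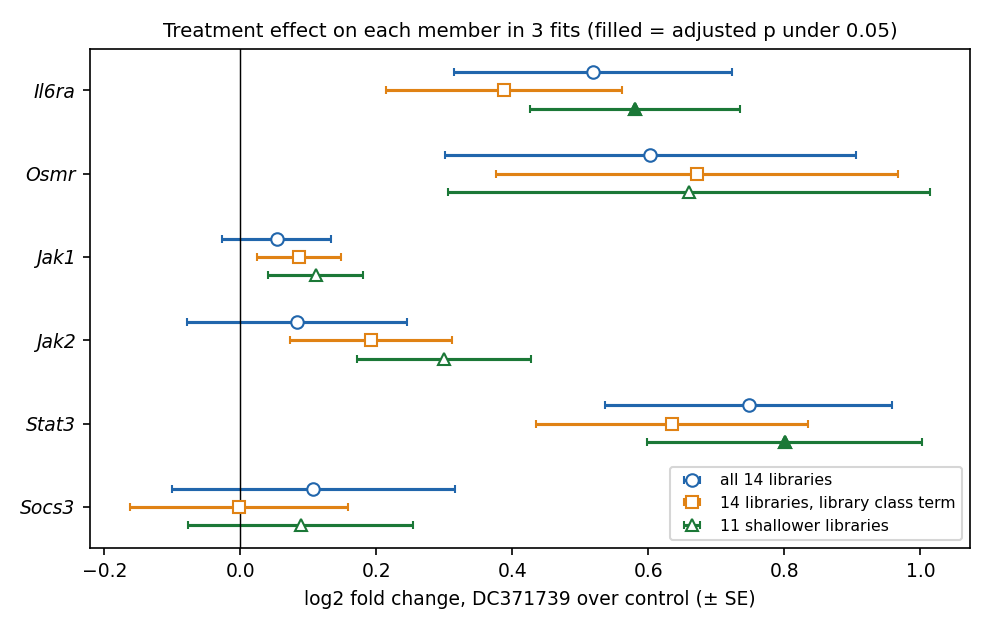
Log2 fold change of DC371739 over control (horizontal axis, ± SE) for each member in 3 edgeR fits, with filled symbols for an adjusted p under 0.05. Stat3 and Il6ra are filled over the 11 shallower libraries, at 0.80 and 0.58, and no symbol is filled in the other fits.

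Socs3, the feedback inhibitor that STAT3 induces, was at 5.504 to 16.8 CPM in DC371739 libraries (median 9.83) and at 5.44 to 11.9 CPM in control libraries (median 9.23). DC371739 replicate 5 alone lay outside the control range. DC371739 replicate 6, which had the most Stat3, had 9.83 CPM of Socs3. Socs3 averaged 10.1 ± 3.49 CPM in DC371739 samples and 9.35 ± 2.11 CPM in control samples (SD, n = 7 each); the log2 fold change was 0.11 (SE 0.21, edgeR adjusted p = 0.815). Its sign turned to -0.06 without DC371739 replicate 5 and to -0.0017 with the library class term.

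The ratio of Stat3 to Socs3, taken from the authors' FPKM (which divides the count by gene length and library size), was 6.05 to 14.7 in DC371739 libraries (median 8.77) and 3.71 to 10.2 in control libraries (median 5.71). It lay above every control in DC371739 replicates 3 and 6 alone. The ratio of Stat3 to Il6ra was steadier, at 3.70 ± 0.58 in DC371739 samples and 3.12 ± 0.22 in control samples (SD, n = 7 each), and 6 of 7 DC371739 libraries lay above the highest control value of 3.35. Both ratios were chosen after the values were seen and were given no test.

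On the per-length scale the members fell into an order of mean levels. Jak1 had the highest level, at 54.8 ± 3.87 FPKM in DC371739 and 52.8 ± 5.96 FPKM in control samples, followed by Stat3 at 45.1 ± 15.4 FPKM in DC371739 and 26.9 ± 6.52 FPKM in control samples. Il6ra came next, at 12.3 ± 3.78 FPKM in DC371739 and 8.59 ± 1.77 FPKM in control samples. Jak2 was at 6.39 ± 1.10 FPKM in DC371739 and 6.03 ± 1.72 FPKM in control samples, and Socs3 at 4.91 ± 1.70 FPKM in DC371739 and 4.56 ± 1.01 FPKM in control samples. Osmr had the lowest level, 0.89 ± 0.46 FPKM in DC371739 and 0.58 ± 0.14 FPKM in control samples (SD, n = 7 each).

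Neighbours in this order were not all separate. Jak1 exceeded Stat3 in all 7 control libraries but in 5 of 7 DC371739 libraries, the exceptions being replicates 3 and 6. Stat3 exceeded Il6ra, and Socs3 exceeded Osmr, in all 14. Il6ra exceeded Jak2 in 11 of 14 libraries and Jak2 exceeded Socs3 in 10, so these neighbours overlapped.

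Members also differed between the library classes. With treatment in the model, deeper libraries had more Jak2 (log2 difference 0.52, SE 0.14, edgeR adjusted p = 0.00567) and Jak1 (0.21, SE 0.07, adjusted p = 0.0279), and less Socs3 (-0.69, SE 0.21, adjusted p = 0.0116) and Il6ra (-0.63, SE 0.22, adjusted p = 0.0285) than shallower ones. These 4 of 6 members passed, where 46.4% of all genes did. Stat3 was at -0.56 (adjusted p = 0.0826) and Osmr at 0.43 (adjusted p = 0.318).

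Whether the treatment effect itself differed between library classes was tested with an interaction term, the deeper class holding a single DC371739 library. The effect on Il6ra was lower by 1.04 on the log2 scale in the deeper class (SE 0.36, unadjusted p = 0.0107, edgeR adjusted p = 0.290) and that on Stat3 lower by 0.86 (SE 0.47, adjusted p = 0.466). No member passed, and over all genes 2 of 12166 (0.0164%) did. The lone deeper DC371739 library was assumed to vary like the other groups, so this test says little about whether the effects differ.

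Il6ra was among the 5 genes whose pattern over the 14 libraries lay closest to that of Stat3. Likeness was taken as the mean absolute difference between log2 CPM values, each gene centred on its own mean, over 10010 other genes with a symbol. Their distances from Stat3 were 0.14 for Smurf1 (a ubiquitin ligase), 0.15 for Sh3pxd2a (an adaptor of podosomes), 0.16 for C3 (the central complement component), 0.16 for Hectd4 and 0.16 for Il6ra. The median distance over all genes was 0.51, and Stat3 itself deviated from its mean by 0.46 on average.

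DC371739 replicates 3 and 6 held the 2 highest values of Stat3, and likewise of Smurf1, Sh3pxd2a, C3, Hectd4 and Il6ra. These genes were picked for likeness to Stat3 over the same libraries, treated and control alike. Their shared high libraries and their differences between the groups follow largely from that choice and are no separate result. C3 averaged 8284 ± 2187 CPM in DC371739 samples and 5420 ± 1530 CPM in control samples (SD, n = 7 each, edgeR adjusted p = 0.0996). Sh3pxd2a alone among them passed over all libraries (log2 fold change 0.84, SE 0.21, adjusted p = 0.0494), and it no longer passed under 14 of 23 alternatives (adjusted p up to 0.114), every left-out library but control replicate 7 and DC371739 replicate 7 among them.

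**Figure D3:**
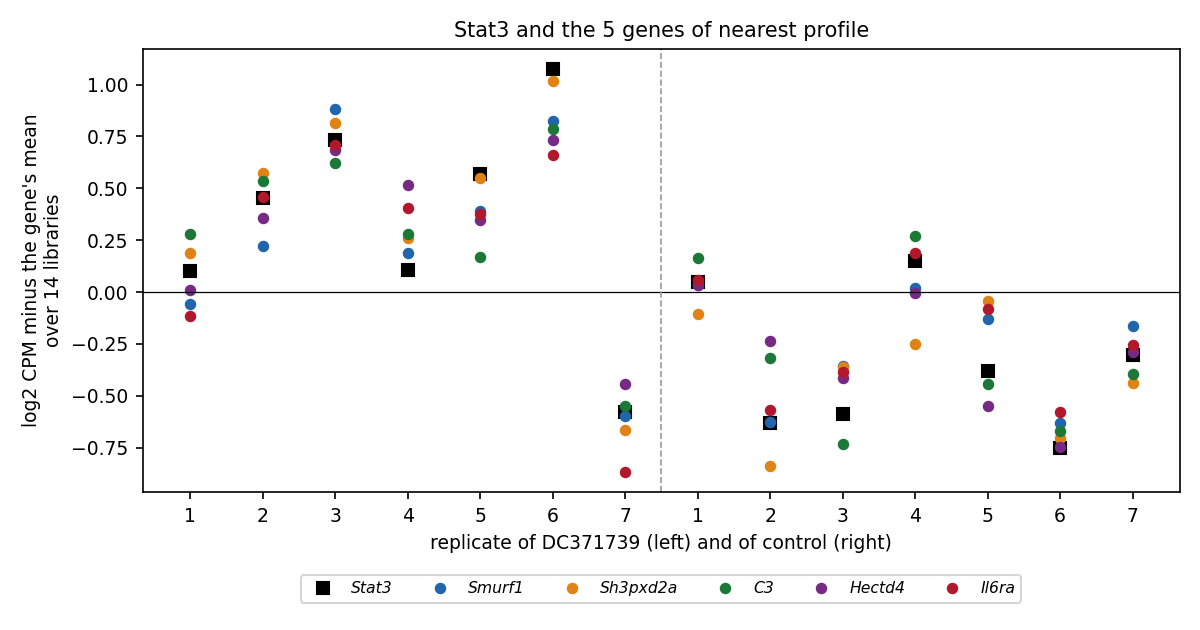
Log2 CPM minus the gene's own mean (vertical axis) of Stat3 and its 5 nearest genes in each library (horizontal axis: DC371739 replicates left, control replicates right). All 6 genes are highest in DC371739 replicate 3 or 6, and all lie below their mean in DC371739 replicate 7.

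The members differed from each other in this measure. Stat3 and Il6ra (0.16) and Jak1 and Jak2 (0.20) were the closest pairs, and Stat3 and Osmr (0.56) the farthest. Stat3 and Socs3 lay 0.45 apart. The genes nearest to Socs3 were Mvk, the mevalonate kinase (0.15), Mdfi (0.16), Trmt44 (0.17), Pidd1 (0.18) and Slc43a1 (0.18), against a median of 0.37 over all genes. These genes were picked for likeness to Socs3 over the same libraries, so their treatment results and lowest libraries follow largely from that choice. None of them passed the treatment test (edgeR adjusted p 0.735 to 0.935). Socs3 and all 5 had their lowest values in each group in DC371739 replicate 7 and control replicate 7. Both of those libraries are of the deeper class, whose part in these likenesses was not tested.

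Other genes of the pathway were read from 6 lists arranged by role, with 100 symbols, of which 68 were in the table and were tested. Of these 68, 2 rose, none fell and 66 did not pass, where 1.85% of all genes passed. Their median log2 fold change was 0.12, and 50 were positive, where 46.6% of all genes were. Adding library class gave 9 calls, 6 higher and 3 lower, where 12.3% of all genes passed. The shallower libraries alone gave 13 calls, 9 higher and 4 lower, where 21.5% passed.

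**Figure D4:**
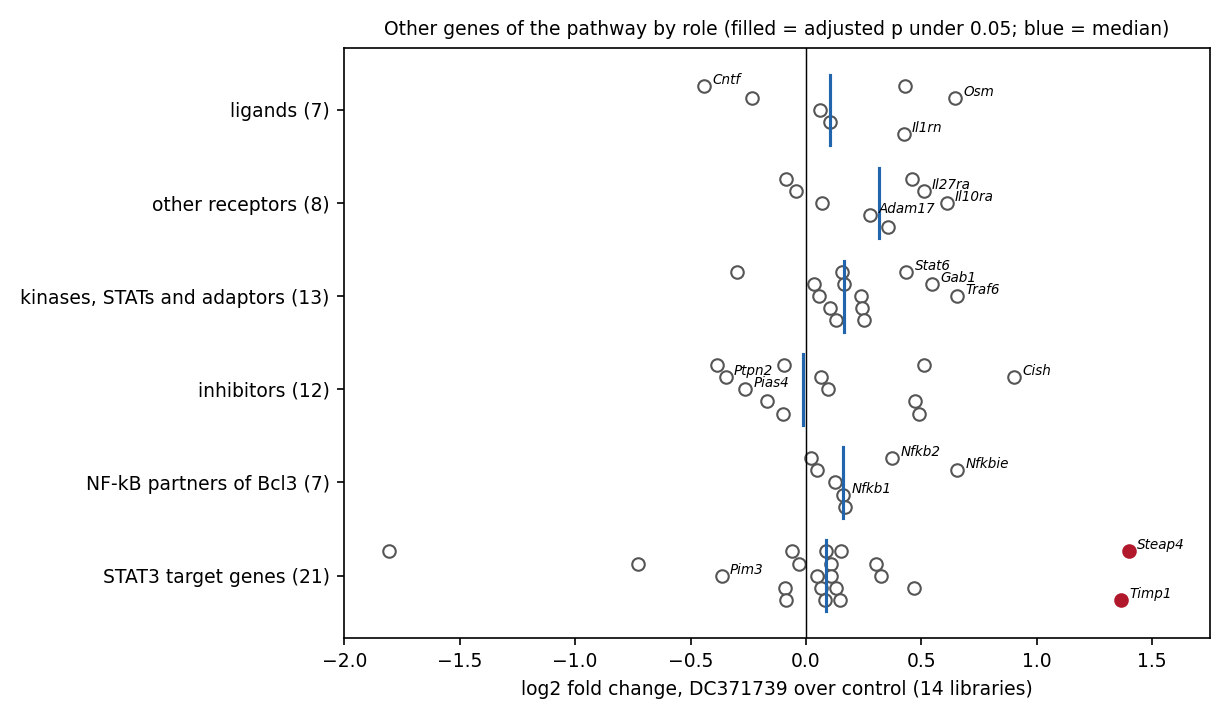
Log2 fold change of DC371739 over control (horizontal axis) for the 68 tested pathway genes by role, over 14 libraries; the number of genes is in brackets, and the genes named by the rule are labelled. Steap4 (1.40) and Timp1 (1.36) alone have an adjusted p under 0.05.

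Of 15 ligands and their antagonists 7 were tested and none passed over all libraries. Osm, the ligand of Osmr, was at 2.56 ± 1.21 CPM in DC371739 samples and 1.64 ± 0.72 CPM in control samples (log2 fold change 0.65, SE 0.32, edgeR adjusted p = 0.269). Il1rn, the interleukin-1 receptor antagonist, was at 90.3 ± 14.5 CPM in DC371739 and 67.3 ± 14.04 CPM in control samples (0.42, adjusted p = 0.0999), and rose over the shallower libraries (0.46, adjusted p = 0.0210). Cntf, the ciliary neurotrophic factor, lay below the control median in all 7 DC371739 libraries (-0.44, adjusted p = 0.120). Clcf1, a ligand of the ciliary neurotrophic factor receptor, also lay below the control median in all 7 DC371739 libraries (-0.23, adjusted p = 0.639), and fell over the shallower ones (-0.51, adjusted p = 0.0399). Clcf1 was named after its values were seen. The interleukin-6 gene itself was not analysed here.

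Of 14 further receptors and receptor-shedding enzymes 8 were tested and none passed over all libraries. Il10ra, the receptor of interleukin-10, was above the control median in all 7 DC371739 libraries, at 12.6 ± 2.19 CPM in DC371739 and 8.27 ± 2.15 CPM in control samples (0.61, SE 0.16, edgeR adjusted p = 0.0565). Adam17, the protease that sheds the interleukin-6 receptor from the cell surface, was at 25.0 ± 2.71 CPM in DC371739 and 20.6 ± 1.41 CPM in control samples (0.28, SE 0.09, adjusted p = 0.0919). Both rose with the library class term (adjusted p = 0.0169 and 0.0354) and over the shallower libraries (0.0258 and 0.0149). Il27ra, another partner of gp130, stood at 0.51 (adjusted p = 0.164). Adam10, a related protease that was named after its values were seen, was at 0.07 over all libraries (adjusted p = 0.866) and rose over the shallower ones (0.27, adjusted p = 0.0381).

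Of 16 kinases, STATs and adaptors 13 were tested, and none passed over all libraries. The log2 fold change was positive for 12 of the 13, and for 46.6% of all genes. Stat6, the factor of interleukin-4 signalling, lay above every control in 6 of 7 DC371739 libraries, at 34.9 ± 5.60 CPM in DC371739 and 25.8 ± 4.29 CPM in control samples (0.44, SE 0.13, edgeR adjusted p = 0.0769). It rose with the class term (0.37, adjusted p = 0.00987) and over the shallower libraries (0.39, adjusted p = 0.00642). Gab1, an adaptor downstream of gp130, stood at 0.54 (adjusted p = 0.104), and Traf6, the ubiquitin ligase of interleukin-1 signalling, at 0.65 (adjusted p = 0.157). Traf6 rose in both fits (0.77 and 1.06, adjusted p = 0.0489 and 0.00703), and Gab1 over the shallower libraries (0.66, adjusted p = 0.0243).

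Of 15 inhibitors 12 were tested, and none passed over all libraries. The log2 fold change was positive for 6 and negative for 6, where 46.6% of all genes were positive. Ptpn2, a phosphatase that removes phosphate from JAKs and STAT3, was at 23.8 ± 2.15 CPM in DC371739 samples and 30.2 ± 3.60 CPM in control samples (-0.35, SE 0.09, edgeR adjusted p = 0.0558). In 6 of 7 DC371739 libraries it lay below every control, the exception being the deeper replicate 7. Ptpn2 fell with the class term (-0.33, adjusted p = 0.0174) and over the shallower libraries (-0.34, adjusted p = 0.0133).

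Pias4, a SUMO ligase that restrains STATs, lay below the control median in all 7 DC371739 libraries (-0.26, adjusted p = 0.230), and fell in both of those fits (-0.30 and -0.38, adjusted p = 0.0375 and 0.00859). Cish, a STAT5-induced relative of Socs3, had the largest log2 fold change of the inhibitors (0.90, SE 0.36, edgeR adjusted p = 0.178). Its 2 highest values, 51.9 and 36.6 CPM, came from DC371739 replicates 2 and 1, and the other 5 DC371739 libraries lay at 9.12 to 18.0 CPM, within the control range of 7.04 to 21.2 CPM. The top of that range was the deeper control replicate 6, and the next control was at 12.98 CPM. Among the shallower libraries, 5 of 6 DC371739 libraries lay above every control (1.23, SE 0.44, edgeR adjusted p = 0.0711). With the class term the log2 fold change of Cish was 0.88 (adjusted p = 0.202).

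Of 9 NF-kB proteins and inhibitors that partner with Bcl3 or its targets 7 were tested, and none passed in any of the 3 fits. All 7 had a positive log2 fold change, as did 46.6% of all genes. Nfkbie, an inhibitor of NF-kB, stood at 0.65 (edgeR adjusted p = 0.160), Nfkb2 at 0.37 (0.287) and Nfkb1, the precursor of the p50 subunit that Bcl3 binds, at 0.16 (0.495). Their values in DC371739 replicate 7 lay within the control range.

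Of 31 genes known as STAT3 targets 21 were tested, and 2 rose, Steap4 and Timp1, where 1.85% of all genes passed. Steap4, a metalloreductase, was at 98.4 to 368 CPM in DC371739 libraries (median 216) and at 47.6 to 110 CPM in control libraries (median 89.7), a log2 fold change of 1.40 (SE 0.29, edgeR adjusted p = 0.0291). Timp1, an inhibitor of matrix metalloproteinases, was at 2.03 to 8.38 CPM in DC371739 and 0.99 to 2.81 CPM in control libraries (1.36, SE 0.29, adjusted p = 0.0322). Both also rose with the class term (1.37 and 1.32, edgeR adjusted p = 0.0316 and 0.0121). They rose over the shallower libraries too (1.67 and 1.27, adjusted p = 0.0110 and 0.0182). Over all libraries, either call was lost when control replicate 1, 2 or 3, or DC371739 replicate 2, 3, 5 or 6, was removed. That of Steap4 was also lost without control replicate 5. The edgeR adjusted p then ran up to 0.0768 for Steap4 and 0.0780 for Timp1.

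The list's median log2 fold change was 0.09, with 14 positive and 7 negative, where 46.6% of all genes were positive. Fos had the largest change in size of all 68 tested pathway genes (-1.81, SE 0.63, edgeR adjusted p = 0.119). It lay below the control median in all 7 DC371739 libraries. Junb lay below its control median in 6 of 7 (-0.73, SE 0.33, adjusted p = 0.231). Neither passed in any of the 3 fits, and both were named after their values were seen. Pim3, a kinase gene, lay below the control median in all 7 DC371739 libraries (-0.36, SE 0.13, edgeR adjusted p = 0.118), and fell with the class term (-0.38, adjusted p = 0.0461) and over the shallower libraries (-0.48, adjusted p = 0.0172). STAT3 activity in the liver is known for raising acute phase genes. None of the 9 tested genes of this list that were read as such passed in any of the 3 fits. Whether each of them responds to STAT3 in hamsters was not tested. Over all libraries their log2 fold changes were 0.47 for Lbp (unadjusted p = 0.0249, edgeR adjusted p = 0.178), 0.33 for Hpx (unadjusted p = 0.0414, adjusted p = 0.225), 0.30 for Crp, 0.15 for Apcs, 0.15 for Fga, 0.13 for Hp, 0.06 for Fgg, 0.05 for Hamp and -0.03 for Fgb. These genes were named after their values were seen.

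Markers of other liver cells were read from the same libraries. Of the 13 tested macrophage markers (14 listed), 3 rose (Laptm5, Ctss and Mpeg1, with log2 fold changes of 0.70, 0.77 and 0.80), where 1.85% of all genes passed. Another 4 had negative values that did not pass (C1qa -0.26, C1qb -0.07, C1qc -0.06 and Cd163 -0.55). Over the shallower libraries 6 of 13 rose, where 21.5% of all genes passed. With the library class term 7 of 13 rose, where 12.3% of all genes passed. For the whole list, the summed level was 792 to 1241 CPM in DC371739 samples and 701 to 1060 CPM in control samples. Summed neutrophil markers (3 of 9 in the table) were at 8.74 to 14.9 CPM in DC371739 and 5.84 to 9.93 CPM in control samples. Summed lymphocyte markers (8 of 13) were at 8.68 to 19.8 CPM in DC371739 and 6.98 to 13.7 CPM in control samples, and summed stellate cell markers (11 of 11) at 309 to 506 CPM in DC371739 and 242 to 349 CPM in control samples.

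Endothelial markers summed to 217 to 300.2 CPM in DC371739 and 185 to 273 CPM in control samples, and cholangiocyte markers to 19.6 to 40.0 CPM in DC371739 and 17.6 to 27.0 CPM in control samples. Over all 14 libraries no marker of these 5 lists passed. Over the shallower ones 4 of 10 endothelial, 2 of 11 stellate, 1 of 3 neutrophil, 1 of 8 lymphocyte and 0 of 5 cholangiocyte markers rose, where 21.5% of all genes passed. With the library class term 2, 1, 1, 1 and 0 of them rose in the same order, where 12.3% of all genes passed. No marker that had a row was at 0 in all libraries (0 of 58). In DC371739 replicates 1 to 7, macrophage markers summed to 1087, 1232, 1039, 792, 1135, 1124 and 1241 CPM. Stat3 in the same order was at 63.1, 80.6, 97.6, 63.3, 87.1, 124 and 39.3 CPM, replicate 7 being the deeper library. In control replicates 1 to 7, macrophage markers summed to 996, 870, 731, 1060, 701, 844 and 771 CPM. Stat3 in those controls was at 60.8, 37.9, 39.1, 65.1, 45.1, 34.9 and 47.5 CPM, replicates 6 and 7 being the deeper libraries. The part of these cells in the results on Stat3, Il6ra and Il10ra was not tested.

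By the positions in the deposited counts, for which the sources used here name no genome build, Stat3 (ENSMAUG00000008769) spans 20633828 to 20654239 on the plus strand of scaffold KB708147.1, with 2277 bases of summed exons. Socs3 (ENSMAUG00000010984) lies on the same scaffold and strand, at 3837123 to 3841178. Il6ra (ENSMAUG00000011038) spans 6424543 to 6474645 of KB708224.1, Osmr (ENSMAUG00000019728) 4246517 to 4310031 of KB708205.1, Jak1 (ENSMAUG00000010024) 730810 to 773518 of KB708359.1 and Jak2 (ENSMAUG00000008571) 29455541 to 29526142 of KB708127.1, all on the minus strand.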

How the data were processed

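Liver RNA of 14 samples was analysed, 7 treated with DC371739 and 7 control. The submitters' processing notes list the aligner HISAT2 (version 2.2.1), the counter featureCounts (version 2.0.0) and edgeR. The sources used here do not give their settings, the genome build, the annotation or whether counting used strand. Per the file headers, one deposited table holds raw counts per Ensembl gene, and the other FPKM with the authors' log2 fold changes, log2 mean CPM, p-values and adjusted p-values. From the values, each of the authors' FPKM equals the count over gene length and 1 constant per library (largest relative deviation 1.3e-07). Symbols came from the authors' table; 0 of the Ensembl identifiers were in the RefSeq gene table.

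The test used here was that of edgeR 4.0.16 under R 4.3.3 (quasi-likelihood F-test, robust, TMM scaling, default filter with a minimum count of 10), with Benjamini-Hochberg adjustment over 12166 genes and calls at 0.05. Standard errors came from the fold change and the root of its F. Log2 CPM used a prior count of 2. Alternatives used limma 3.58.1 and DESeq2 1.42.0 and are given in the closing section. Beside the members, named genes were each list's called genes and its 3 of smallest p, and the 5 profiles nearest to Stat3 and to Socs3. Clcf1, Adam10, Fos, Junb, acute phase genes and macrophage markers were named outside this rule, after their values were seen. The members, lists, library classes and tests were chosen with earlier results of these data known. Promoter sequences were not used here. The test was checked on simulated counts that held no difference between library classes, so the check does not bear on that difference. All 42 within-group pairs of libraries differed by more than sampling noise (chi-square over its degrees of freedom 10.6 or more). Reads shared by near-identical, overlapping or antisense genes cannot be told apart in these counts.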

Additional observations from a re-analysis of the deposited data

Results flagged for a closer look

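For each member and named pathway gene, the highest and lowest library of each group of 7 was set against Dixon's 95% critical value for the gap to its nearest neighbour, which chance exceeds in about 1 of 20 groups. Of 48 groups read, 2 exceeded it, neither of them of a member. Traf6 was at 7.76 CPM in DC371739 replicate 6, with the next highest DC371739 library at 5.40 CPM. Cish was at 21.2 CPM in control replicate 6, with the next highest control at 12.98 CPM.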

How the results depend on the processing

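The count of 225 called genes became 842 with DESeq2, 2739 with limma-voom, 1499 with the library class term and 2635 without the 3 deeper libraries, and ran from 25 to 1069 with 1 library left out (25 to 106 on removing any of control replicates 1, 2, 3 and 5 and DC371739 replicates 2, 3, 5 and 6; 542 without control replicate 7 and 1069 without DC371739 replicate 7). The count of 0 members became 1 with DESeq2, 2 with limma-voom and 2 without the deeper libraries, and was 0 to 2 with 1 library left out, being 2 without DC371739 replicate 7. The count of 2 pathway genes became 8, 16, 9 and 13 in the same 4 fits, and 0 to 10 with 1 library left out. Without DC371739 replicate 7 the deeper libraries left are all controls, so the counts of that fit mix library class with treatment. A block on the replicate number left 8 called genes, 0 members and 0 pathway genes, with adjusted p of 0.0934 for Steap4 and 0.0507 for Timp1. The samples share a number without being shown to be paired: deviations of same-numbered libraries correlated at -0.13 to 0.55, with 2 of 7 pairs above 0.1, and no DC371739 library correlated best with the control library of its own number (0 of 7). Scaling by RLE or library size alone and other expression filters changed no member's call or direction.

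The class difference in treatment effect was called for 2 genes, for 4 without scaling factors and for 1 to 6 with 1 library left out; no member was called. With a library left out, 1624 to 2913 genes and 2 to 3 members passed over the shallower libraries, and 0 to 2 members with the class term. The 2 came without DC371739 replicate 7, where the class-term estimate rests on the shallower libraries alone. Signs reversed for genes near 0, none of them at an adjusted p under 0.05. With the class term the log2 fold change of Socs3 was -0.0017, that of Mdfi -0.057 and that of Slc43a1 -0.0080, and Mdfi was at -0.050 without the deeper libraries. With 1 library left out, the log2 fold change of Socs3 ran from -0.065 to 0.214 over all libraries, from -0.082 to 0.152 over the shallower ones and from -0.145 to 0.083 with the class term. Over all libraries that of Mdfi then ran from -0.097 to 0.161, that of Slc43a1 from -0.00098 to 0.147, that of Trmt44 from -0.122 to 0.074 and that of Pidd1 from -0.163 to 0.012. Without DC371739 replicate 7 no fit of the class difference could be had. Osmr had 7 to 47 counts per library, and the part of depth in its missing call was not tested. The cause of these changes was not tested.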
